A study of Drosophila melanogaster with 4 samples.

Results

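Among the genes measured in these libraries, 10 are read-outs or components of the response to fasting and to insulin, and their messenger RNA levels were followed across 4 genotypes of Drosophila melanogaster. The 10 genes were InR, foxo, Thor, Pepck, sug, daw, tobi, to, fit and CG6295, each taken by its symbol from a table of 13990 genes, in which each symbol occurred as 1 row. Of these, 9 passed the quality and level filters that left 10872 genes for comparison. InR did not pass, because its quantification is marked as failed in the V966M heterozygote and in the 51B homozygote.

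All flies were adult males 0 to 16 hr old, grown at 25 °C, and RNA was taken from them with Trizol for Illumina sequencing. The 4 genotypes were V966M / TM3,twi-GFP,Sb,Ser (here the V966M heterozygote), V966M / V966M (the V966M homozygote), 51B / TM3, Ser, y+ (the 51B heterozygote) and 51B / 51B (the 51B homozygote). Both V966M and 51B are mutations in Ago2, the gene of the Argonaute protein that carries small interfering RNAs. TM3 is a balancer, a rearranged version of chromosome 3, so each heterozygote also differed from its homozygote by 1 whole copy of chromosome 3, and the balancers of the stocks carry different markers. No wild-type flies were among the samples analysed here, and feeding state is not given in the labels.

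In insects, insulin-like peptides released after feeding activate the insulin receptor, and the kinase cascade below it keeps the transcription factor FOXO out of the nucleus. During fasting FOXO enters the nucleus and switches on genes such as the translational repressor Thor and the insulin receptor itself. The fat body, which combines functions of liver and adipose tissue, then turns from storage to release of fuel, and newly emerged adults carry larval fat cells as an early energy reserve.

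Levels are given as FPKM, fragments divided by transcript length and by library size, which allow genes to be compared per length. The table holds 1 FPKM value per gene and genotype, with the bounds of an interval around it. Duplicate sequencing is mentioned in the design text, but how duplicates were combined is not given in the sources used here. There were therefore no replicate values and no test between genotypes. The interval, printed after each value in parentheses, is the only measure of error. Whether it includes the spread between duplicates is not given. A change is log2 of the ratio of FPKM + 1, positive where the genotype named before its comparator is higher. Because of the added 1, weakly expressed genes show too small a change. Calls of higher or lower were made when this change reached 1 in size, a 2-fold difference, and the intervals of both genotypes stayed clear of each other. Read depth is unknown. Across the 9 analysed genes the interval reached to each side by a median of 25.2% of the value in V966M heterozygotes, 16.5% in V966M homozygotes, 16.3% in 51B heterozygotes and 32.7% in 51B homozygotes, so values are least certain in the last.

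The targeted gene, AGO2, fell within the 51B pair from 46.5 FPKM to 6.33 FPKM from heterozygote to homozygote, and was at 150.0 and 101 FPKM in the V966M pair. As markers of adult males, 6 testis genes summed to 918 to 1552 FPKM and 5 accessory gland genes to 444 to 781 FPKM over the genotypes, and 5 female fat body and ovary genes summed to 18.4 to 23.7 FPKM. No marker was listed at 0 in any genotype. The 4 fat body markers added up in V966M heterozygotes to 331 FPKM, V966M homozygotes to 338 FPKM, 51B heterozygotes to 288 FPKM and 51B homozygotes to 585 FPKM. The RNA came from whole males, so fewer cells of a type and less RNA per cell cannot be told apart.

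The 51B homozygote had more RNA than its heterozygote of Thor, Pepck, sug and daw, genes that the fasting and sugar responses act on, and less of the lipase gene CG6295 and of fit. These were 4 higher and 2 lower calls among the 9 analysed genes. The genes were chosen with earlier results of these data known, so their count beside the share of all genes is a description only. fit, 1 of the 2 lower, passed the filter at a mean of 1 FPKM only through the 51B heterozygote, where it was highest. With the filter at 5 FPKM, which leaves it out, 4 of 8 were higher and 1 lower. At that filter 165 of all 7967 genes were called higher and 95 lower. Of all 10872 genes, 1.69% were called higher and 1.12% lower in this comparison. After rescaling of the libraries to a common median ratio, 3 were higher and 2 lower, beside 1.29% and 1.45% of all genes. In the V966M pair none of the 9 was called, where 0.414% of all genes were called in either direction, and none after rescaling, beside 0.193%. The 4 higher genes lie on chromosome 2 and both lower genes on chromosome 3. The median change of the 9 was 0.76 in 51B and -0.23 in V966M, beside 0.07 and -0.25 over all analysed genes. The difference between the alleles was not tested, since each rests on 1 value per genotype.

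**Figure D1:**
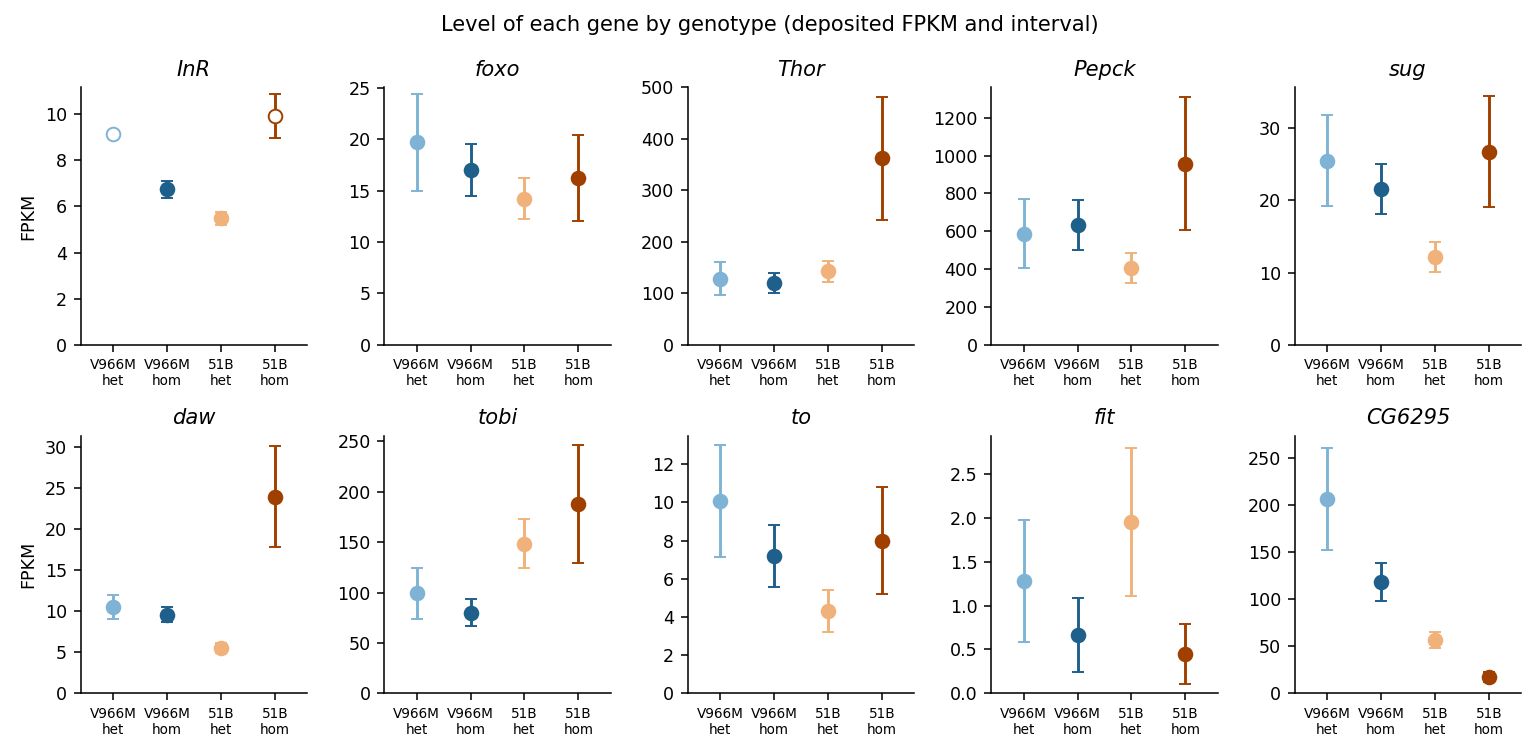
Deposited FPKM (vertical axes, linear from 0) of the 10 genes in the 4 genotypes, 1 point per genotype, with the deposited interval as a bar; het is heterozygote and hom is homozygote. Open points are values whose quantification is marked as failed, and the one without a bar has no upper bound. The highest point is in the 51B homozygote for 6 genes: Thor, Pepck, sug, daw, tobi and, with a failed value, InR. The lowest is in the 51B heterozygote for 6: InR, foxo, Pepck, sug, daw and to. CG6295 steps down from 207 to 17.3 FPKM.

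The receptor gene InR encodes the insulin receptor. It was detected in V966M heterozygotes at 9.15 FPKM (failed, with no upper bound), V966M homozygotes at 6.74 FPKM (6.37 to 7.10), 51B heterozygotes at 5.48 FPKM (5.19 to 5.78) and 51B homozygotes at 9.93 FPKM (8.97 to 10.9) (failed). Only the V966M homozygote and the 51B heterozygote have valid values, and their intervals do not meet. No call was made for this gene, and the difference between 5.48 and 9.93 FPKM rests on a failed value. Its locus in genome build dm3 is 3R from 17398221 to 17445043.

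The factor that insulin signalling restrains, FOXO, is encoded by foxo, on 3R from 9882674 to 9913698. It was detected in V966M heterozygotes at 19.7 FPKM (15.0 to 24.5), V966M homozygotes at 17.0 FPKM (14.5 to 19.5), 51B heterozygotes at 14.2 FPKM (12.2 to 16.2) and 51B homozygotes at 16.2 FPKM (12.0 to 20.4). All 4 intervals overlapped, and foxo spanned the smallest range of the 9 genes, 0.44 on the log2 scale. Its change was 0.18 in 51B and -0.21 in V966M. FOXO is controlled largely by where the protein sits in the cell, which RNA levels do not report.

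Thor encodes 4E-BP, which binds the cap-binding factor eIF4E and lowers translation. It is a direct FOXO target and lies on 2L from 3478434 to 3479612. The transcript was found in V966M heterozygotes at 128 FPKM (96.0 to 160.0), V966M homozygotes at 120.0 FPKM (101 to 139), 51B heterozygotes at 142 FPKM (121 to 164) and 51B homozygotes at 362 FPKM (243 to 481). The first 3 overlapped and the 51B homozygote lay above all of them. There Thor was 2.55-fold its level in the heterozygote, with 1.49 to 3.98 as the ratios spanned by the interval ends, and its change of 1.34 was the 88th highest of all analysed genes. In V966M its change was -0.09.

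The ratio of Thor to foxo within a genotype does not depend on how libraries are scaled against each other. It came to 6.49 for V966M heterozygotes, 7.06 for V966M homozygotes, 9.99 for 51B heterozygotes and 22.3 for 51B homozygotes. The ratio from interval ends ran from 7.45 to 13.4 in the 51B heterozygote and from 11.9 to 40.1 in the 51B homozygote, which overlap. Ratios of Pepck and of sug to foxo likewise overlapped in the 51B pair, at 20.2 to 39.7 and 29.5 to 109 for Pepck and at 0.625 to 1.16 and 0.932 to 2.87 for sug. For daw over foxo the same ratio was 0.389 (0.304 to 0.502) and 1.47 (0.868 to 2.50) in the 51B pair, where, alone of the 4 called higher, the ranges stayed apart. In the V966M pair it was 0.532 (0.368 to 0.798) and 0.562 (0.441 to 0.724).

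Pepck encodes phosphoenolpyruvate carboxykinase, the enzyme that commits carbon to gluconeogenesis and glyceroneogenesis, and its transcript is induced by fasting. It was the most abundant of the 10 in every genotype, measured in V966M heterozygotes at 587 FPKM (405 to 768), V966M homozygotes at 632 FPKM (502 to 763), 51B heterozygotes at 407 FPKM (328 to 485) and 51B homozygotes at 958 FPKM (604 to 1312). The V966M values lay between those of the 51B pair. Both overlapped the 51B homozygote, and the V966M homozygote lay just above the 51B heterozygote. The 51B homozygote had 2.36-fold the level of its heterozygote (1.24 to 4.0 from the interval ends), a change of 1.23. In V966M its change was 0.11, with overlapping intervals, and as deposited the other 8 analysed members were negative, as were most genes. After rescaling, foxo at 0.06, Thor at 0.18, sug at 0.03 and daw at 0.12 turned positive in V966M too, and the median of the 9 became 0.03, beside -0.00 over all genes. Its locus is 2R from 14424272 to 14426924.

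The neighbouring paralogue, CG10924, which the RefSeq annotation lists as Pepck2, differed more between stocks than within them. It had 13.5 FPKM (10.3 to 16.8) and 16.1 FPKM (14.5 to 17.8) in V966M heterozygotes and homozygotes, and 3.34 FPKM (2.88 to 3.79) and 4.52 FPKM (4.05 to 4.98) in those of 51B. Both V966M genotypes were called higher than the 51B genotype of the same zygosity, with changes of 1.74 and 1.64, and neither homozygote was called against its heterozygote. In 51B those intervals were apart, with a change of 0.35.

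sug (sugarbabe) encodes a zinc finger transcription factor known for its induction by dietary sugar and for acting on fat body metabolism, on 2R from 8816368 to 8818151. The transcript was found in V966M heterozygotes at 25.5 FPKM (19.2 to 31.8), V966M homozygotes at 21.5 FPKM (18.1 to 25.0), 51B heterozygotes at 12.2 FPKM (10.1 to 14.2) and 51B homozygotes at 26.8 FPKM (19.1 to 34.5). The 51B heterozygote stood below the other 3, which overlapped. sug was 2.20-fold higher in the 51B homozygote than in its heterozygote, a change of 1.08. That call is lost after rescaling, where the change is 0.96.

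daw (dawdle) encodes a ligand of the Activin branch of TGF-beta signalling and has been tied to sugar handling and insulin secretion in flies. The gene is a FOXO target, but whether FOXO raises or lowers it was not examined here. It lies on 2L from 2805518 to 2812147. The transcript was found in V966M heterozygotes at 10.5 FPKM (9.0 to 12.0), V966M homozygotes at 9.54 FPKM (8.61 to 10.5), 51B heterozygotes at 5.54 FPKM (4.93 to 6.14) and 51B homozygotes at 23.9 FPKM (17.8 to 30.0). The V966M genotypes overlapped each other, the 51B heterozygote lay below both, and the 51B homozygote above both. The 51B ratio was 4.32 (2.89 to 6.09 from the interval ends). With a change of 1.93, daw stood 31st from the top of all analysed genes.

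tobi (target of brain insulin) encodes an alpha-glucosidase whose transcript depends on the insulin-producing cells of the brain. It was detected in V966M heterozygotes at 99.1 FPKM (74.1 to 124.1), V966M homozygotes at 80.0 FPKM (66.9 to 93.2), 51B heterozygotes at 149 FPKM (124.4 to 173) and 51B homozygotes at 188 FPKM (129 to 247). Intervals overlapped within each pair, with a change of 0.34 in 51B and -0.30 in V966M, whereas every V966M interval lay below every 51B interval, narrowly so for the heterozygotes. Its locus on 3R, from 21165974 to 21172634, overlaps that of rha, which had 14.3 to 22.5 FPKM. Whether fragments were shared between them was not tested.

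to (takeout) encodes a secreted protein related to juvenile hormone binding proteins; its transcript follows the circadian clock and rises on starvation. On 3R from 21065902 to 21067175, it was detected in V966M heterozygotes at 10.1 FPKM (7.14 to 13.0), V966M homozygotes at 7.22 FPKM (5.59 to 8.84), 51B heterozygotes at 4.30 FPKM (3.19 to 5.42) and 51B homozygotes at 8.0 FPKM (5.19 to 10.8). Only the 51B heterozygote fell outside the V966M intervals, and it overlapped its own homozygote. The change of 0.76 in 51B and of -0.43 in V966M stayed short of a call.

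fit (female-specific independent of transformer) is a fat body gene with much higher expression in females than in males, and in female flies its secreted product responds to protein feeding. In these males it was the scarcest of the 10, measured in V966M heterozygotes at 1.28 FPKM (0.585 to 1.97), V966M homozygotes at 0.665 FPKM (0.248 to 1.08), 51B heterozygotes at 1.95 FPKM (1.11 to 2.80) and 51B homozygotes at 0.449 FPKM (0.110 to 0.787). The 51B heterozygote lay above both homozygotes and overlapped the V966M heterozygote. The mean of 1.09 FPKM was just above the filter and without the 51B heterozygote would have been below it, so the gene entered the comparison through the genotype where it was high. Its change in the 51B homozygote, -1.03, was a lower call and is given as a description. Female fat body and ovary markers, none at 0, summed to 18.4 and 23.7 FPKM in the same pair, and 1 of the 3 analysed, the chorion gene Cp15, was called higher in the homozygote; their part in the fit result was not tested. Its intervals extended by 43.4% to 75.4% of the value, and with a pseudocount of 5 FPKM the change was -0.35 and no call. On 3R from 17706532 to 17710176 it shares a locus with CG31465, at 4.32 FPKM in 51B heterozygotes and 3.56 FPKM in 51B homozygotes.

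CG6295 is predicted to encode a secreted lipase of the pancreatic lipase family. It lies on 3R from 22831621 to 22832777 and varied most among the 10 genes. It was detected in V966M heterozygotes at 207 FPKM (153 to 261), V966M homozygotes at 119 FPKM (98.6 to 139), 51B heterozygotes at 56.4 FPKM (47.6 to 65.3) and 51B homozygotes at 17.3 FPKM (11.6 to 22.9). No interval met another, and both homozygotes were below their heterozygotes. In 51B the heterozygote had 3.27-fold the level of the homozygote (2.08 to 5.62 from the interval ends), a change of -1.65 and the 33rd lowest of all genes. In V966M the ratio was 1.74, and the change of -0.80, the 129th lowest of all genes, was no call. After rescaling those intervals overlapped.

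The summed level of the gut markers differed between stocks in the direction of CG6295. Of this list, 4 of the 7 genes are lipase relatives of CG6295, and alphaTry held most of the sum, at 271 and 292 FPKM in the 51B pair. The list of 7, with the amylase gene Amy-p and the trypsin gene alphaTry, added up in V966M heterozygotes to 1102 FPKM, V966M homozygotes to 849 FPKM, 51B heterozygotes to 455 FPKM and 51B homozygotes to 459 FPKM, with none at 0. The markers did not move together in 51B: Amy-p was at 124 and 76.1 FPKM, heterozygote first, Jon65Ai at 7.15 and 2.34 FPKM, and the lipase relatives CG6277 and CG6283 were at higher values in the homozygote. Of the 6 analysed, Jon65Ai was called lower in the 51B homozygote and none was called in V966M. Between heterozygotes 3 of the 6 were called higher in V966M and none lower, and between homozygotes 2 were called higher and 2, CG6277 and CG6283, lower. Their part in the CG6295 result was not tested. The fat body marker sums given earlier likewise moved with Thor, Pepck and daw in 51B, where 1 of the 4 markers, the larval storage protein gene Lsp2, was called higher (112 and 298 FPKM). That part was not tested either.

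Between stocks at matched zygosity, the set split. Among heterozygotes, 3 of the 9 genes were called higher in V966M and none lower, beside 2.73% and 0.304% of all genes. These were CG6295 with a change of 1.86, to with 1.06 and sug with 1.01; after rescaling, CG6295 alone was called, beside 1.23% higher and 0.717% lower calls over all genes. Among homozygotes, 1 of the 9 was called higher and 3 lower in V966M, beside 2.75% and 2.78% of all genes, and the counts were 1 and 3 after rescaling too, beside 3.33% and 1.82%. CG6295 was higher, at 119 against 17.3 FPKM. Thor, daw and tobi were lower, with changes of -1.59, -1.24 and -1.22. These comparisons use the same libraries as the comparisons within stocks, so they are not further evidence on them.

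**Figure D2:**
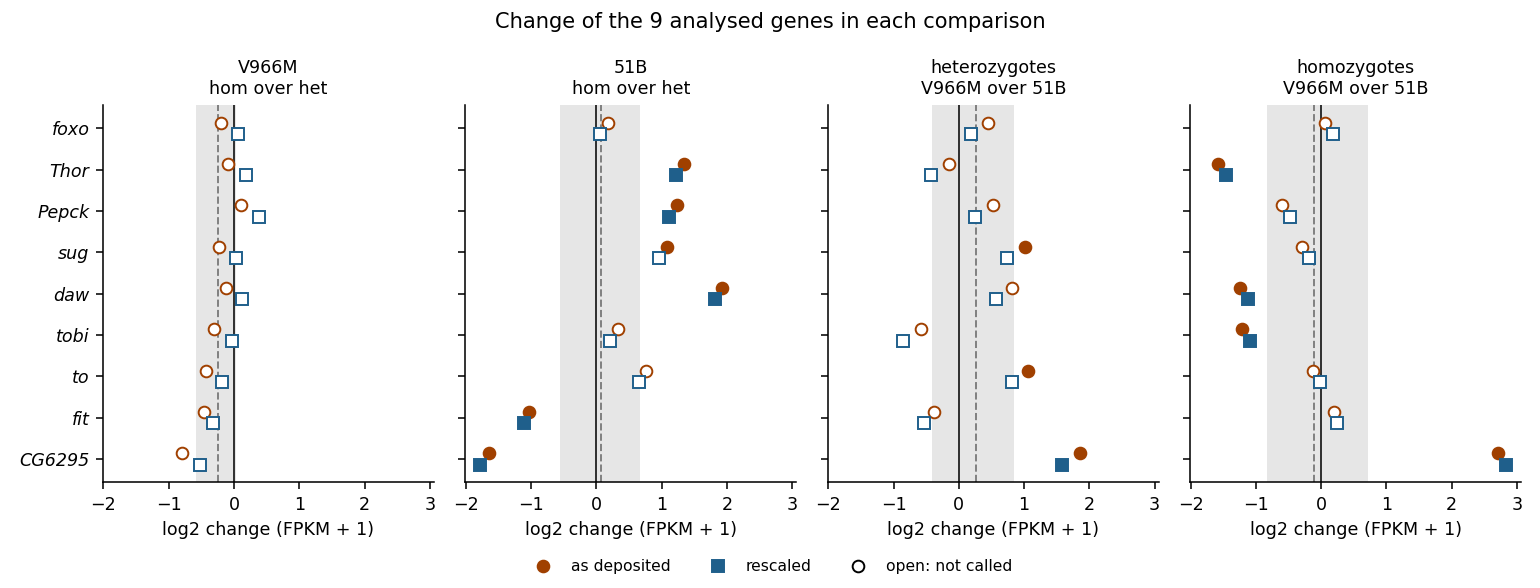
Change on the log2(FPKM + 1) scale (horizontal axes) of the 9 analysed genes in the 4 comparisons. Circles are values as deposited and squares values after rescaling, filled where the gene was called; the grey band holds all analysed genes from the 5th to the 95th percentile as deposited, and the dashed line is their median. In 51B the circles of daw, Thor, Pepck and sug, and of to without a call, lie to the right of the band. Those of CG6295 and fit lie to the left, and the square of to, at 0.66, lies inside the band. In V966M the circles run from -0.80 to 0.11, with CG6295 to the left of the band and Pepck to the right, neither called.

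Balancer chromosomes are carried by the heterozygotes alone, so position matters to these comparisons. Of the analysed members, 5 lie on 3R (foxo, tobi, to, fit and CG6295) and 4 on chromosome 2. In 51B all 4 on chromosome 2 were called higher, with a median change of 1.29, and of the 5 on chromosome 3 none was called higher and 2 lower, with a median of 0.18. The lower genes were CG6295 and fit, and fit passed the filter only through the 51B heterozygote, where it was highest. After rescaling, sug on chromosome 2 was not called, with a change of 0.96. Among all genes, 1.4% on other chromosomes and 2.07% on chromosome 3 were called higher in 51B, and 0.92% and 1.38% lower. Allele and balancer cannot be told apart for genes on chromosome 3, nor for effects of the balancer on genes elsewhere.

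For each member spanning at least 2-fold over the 4 genotypes, the genes with the most similar profile were sought by Euclidean distance between mean-centred log2(FPKM + 1) values. With 4 genotypes such a likeness is weak: 1474 genes lay within 0.5 of to, 758 of tobi, 551 of sug and 372 of Pepck, and 93, 38 and 12 of Thor, daw and CG6295. No member was among the 3 nearest genes of another. Nearest to Thor was CG1882, at 0.04, at 99.6 and 93.6 FPKM in V966M heterozygotes and homozygotes and at 108 and 284 FPKM in those of 51B. CG31106 and CG15661 followed. The nearest to daw were CG17107, CG4269 and CG16898, and those to CG6295 were CG17571, CG17192 and PGRP-SB1. CG17571 was at 19.5, 12.9, 5.27 and 1.33 FPKM in the same order. For Pepck they were fon, CG13482 and CG13510, for sug retinin, Def and CG1143, for to CG13315, CG11911 and NtR, for tobi CG3085, CG8006 and CG6873, and for fit, with 254 genes within 0.5, Cyp4d21, GstD8 and CG12643.

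Other genes of the nutrient response were taken as 11 lists holding 153 symbols, of which 125 matched the table and 104 were analysed. In 51B, 4 of the 104 were called higher and 2 lower in the homozygote, beside the 1.69% and 1.12% of all genes, and their median change was 0.15. A count of 4 in 104 is 3.85%. After rescaling 3 of the 104 were higher and 3 lower in 51B, beside 1.29% and 1.45% of all genes. The lists, too, were chosen with earlier results of these data known. In V966M none of the 104 was called, near the 0.414% of all genes, and their median was -0.30, beside -0.25 over all genes.

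No gene of the insulin and TOR signalling lists was called within either stock. With 2.81% of all genes called in 51B and 0.414% in V966M, few calls or none in lists of this size are near the background. None of 8 insulin-like peptide and binding protein genes was called (median 0.14 in 51B and -0.26 in V966M), nor any of 11 genes from the receptor substrates to the kinases (0.37 and -0.33) or of 16 TOR and energy sensing genes (0.24 and -0.28). ImpL2, which encodes a secreted binder and antagonist of insulin-like peptides, came nearest. In 51B it was at 70.6 FPKM (66.0 to 75.3) and 138 FPKM (120.2 to 156), heterozygote first, with intervals apart and a change of 0.95, against 86.0 and 57.4 FPKM in V966M. Pk61C, the gene of the PDK1 kinase, had 87.4 FPKM (75.6 to 99.2) and 169 FPKM (112 to 226) in 51B, a change of 0.94.

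Ilp7, an insulin-like peptide gene, was at 1.59 and 0.938 FPKM in V966M heterozygotes and homozygotes and at 1.67 and 2.02 FPKM in those of 51B. conv, which encodes the acid-labile subunit, was at 4.60, 3.13, 2.83 and 2.05 FPKM in that order. Among energy sensors, the TOR inhibitor gene scyl had changes of 0.74 in 51B and -0.35 in V966M, and alc, a subunit gene of the AMP-activated kinase, 0.72 and -0.05. Neither was called.

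Of the 8 nutrient-responsive transcription factor genes, Eip75B was called higher in 51B, from 19.1 FPKM (18.1 to 20.1) in heterozygotes to 49.2 FPKM (44.1 to 54.3) in homozygotes, a change of 1.32. It encodes the nuclear receptor E75, induced by ecdysone, and shares its locus with 3 other genes. In V966M it had 27.1 and 25.4 FPKM. HLH106, the fly SREBP gene, and bigmax, the gene of the partner of the sugar sensor Mondo, had changes of 0.65 and 0.70 in 51B and were not called.

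Fat storage and mobilisation genes went both ways in 51B: of 9 analysed, 2 were higher and 1 lower. Lsd-1, which encodes a perilipin of lipid droplets, had 44.2 FPKM (38.1 to 50.2) and 107 FPKM (75.5 to 138), a change of 1.26. AcCoAS, the acetyl-CoA synthetase gene, had 90.2 FPKM (81.7 to 98.7) and 194 FPKM (147 to 240.2), a change of 1.09 that is not called after rescaling. CG5932, the intestinal lipase gene magro, had 36.2 FPKM (30.5 to 41.8) and 7.63 FPKM (5.21 to 10.05), a change of -2.11, in a locus shared with 6 other genes. CG3523, a fatty acid synthase gene, had a change of 0.89 without a call. The lipase gene Lip4 had 15.2 FPKM (13.4 to 17.0) and 8.78 FPKM (7.88 to 9.67), a change of -0.73.

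Akh, the gene of the fuel-mobilising adipokinetic hormone, was at 6.25 and 4.31 FPKM in V966M heterozygotes and homozygotes and at 3.96 and 4.74 FPKM in those of 51B, with no call. Of 14 sugar, trehalose and glycogen genes none was called within a stock; the largest changes in 51B were 0.72 for the trehalose synthesis gene Tps1 and -0.54 for the hexokinase gene Hex-C. None of 11 Activin and TGF-beta pathway genes was called beside daw (median 0.27 in 51B and -0.24 in V966M). The ligand genes mav and Actbeta had changes of -0.66 and -0.00 in 51B and of -0.71 and -0.62 in V966M.

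The sequence relatives of CG6295, to and tobi were mostly without a call within a stock. For the lipase relatives of CG6295 the median change was -0.48 in 51B and -0.48 in V966M, the direction of CG6295. Over all analysed genes it was 0.07 and -0.25. Of 5 analysed lipase relatives of CG6295, CG17192 was called lower in the 51B homozygote, with 6.79 FPKM (5.2 to 8.37) against 1.51 FPKM (0.716 to 2.30), and was at 26.9 and 19.5 FPKM in V966M heterozygotes and homozygotes. CG6283 went the other way in 51B without a call, from 23.7 FPKM (20.0 to 27.4) to 47.9 FPKM (34.4 to 61.4), a change of 0.99. CG6277 had 24.8 and 37.6 FPKM, CG8093 28.3 and 16.3 FPKM, and CG6271 4.41 and 2.89 FPKM in 51B heterozygotes and homozygotes. Where such copies are near-identical, reads can be exchanged between them.

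Of 11 takeout family genes none was called within a stock, and their median change was -0.29 in 51B, beside 0.76 for to. CG1124 and CG13618 had changes of -0.85 and -0.97 in 51B, the latter called lower after rescaling. Of 4 alpha-glucosidase relatives of tobi none was called, with LvpD at -0.48 and LvpL at -0.38 in 51B. Among 7 sex-biased fat body genes and sex regulators, Obp99b, an odorant-binding protein gene also expressed in the fat body of the head, was called higher in 51B, from 230.5 FPKM (196 to 265) to 719 FPKM (492 to 945), opposite to fit. dsx and sxe2 had changes of -0.12 and -0.59.

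Between stocks, 5 of the 104 genes were called higher in the V966M heterozygote and none lower, beside 2.73% and 0.304% of all genes: Lsd-1, mdy, CG10924, CG14661 and CG17192. After rescaling CG10924 and CG17192 were called, beside 1.23% of all genes. The triglyceride synthesis gene mdy had 10.3 FPKM (9.08 to 11.4) against 4.61 FPKM (3.62 to 5.60). Between homozygotes 5 were higher in V966M (CG5932, Lip4, CG10924, CG14661 and CG17192) and 5 lower (ImpL2, AcCoAS, CG6277, CG6283 and Obp99b), beside 2.75% and 2.78% of all genes. After rescaling AcCoAS, CG6277 and Obp99b were no longer called, and CG1124 and sxe2 were called higher. The takeout family gene CG14661 was at 29.9 FPKM (24.9 to 34.8) in V966M homozygotes and 11.9 FPKM (8.10 to 15.8) in 51B homozygotes.

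**Figure D3:**
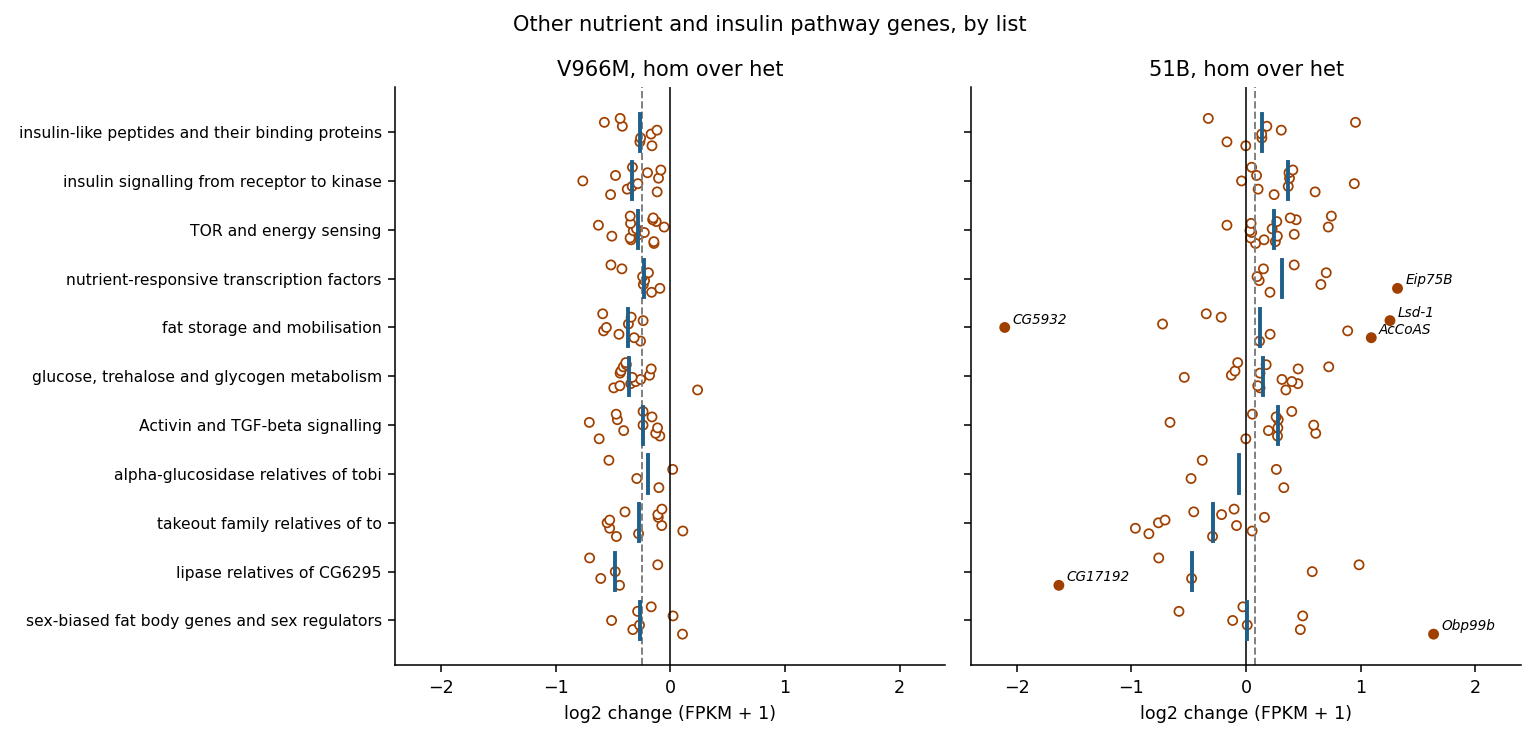
Change on the log2(FPKM + 1) scale (horizontal axes) of the 104 analysed pathway genes, homozygote over heterozygote, by list. Each circle is a gene, filled and named where called; blue bars are list medians and the dashed line is the median of all analysed genes. No circle is filled in V966M, and 6 are in 51B.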

How the data were processed

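Messenger RNA sequencing gave FPKM values that the authors deposited for 13990 genes, together with the bounds of an interval and a status, per the file headers. Per the submitters' processing notes, TopHat and Cufflinks had been run on build dm3. Versions, annotation, interval level and strand setting: not given in the sources used here. Duplicate sequencing is mentioned in the design text, but only 1 value stands in the table for a genotype, used as n = 1.

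Analysed were the genes with a valid status throughout (13197) that also averaged at least 1 FPKM (10872). Changes used a pseudocount of 1 FPKM, in Python 3.11.15 with pandas 2.3.3, and calls needed a 2-fold change and separate intervals. Starts were converted to count from 1: of 6669 genes, 1180 matched the reference length if the deposited start counts from 0 and 109 if from 1.

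For the rescaled alternative, values were divided by the median, over genes, of their ratio to the geometric mean of the genotypes: 1.13 and 0.936 for V966M heterozygotes and homozygotes, 0.932 and 1.02 for those of 51B. Median changes over all genes, as deposited and rescaled, were -0.25 and -0.00 within V966M, 0.07 and -0.04 within 51B, 0.26 and 0.02 for V966M over 51B heterozygotes, and -0.11 and -0.01 for homozygotes. Other alternatives were factors from genes off chromosome 3, a pseudocount of 5 FPKM, a mean of at least 5 FPKM, no such filter, and a 1.5-fold threshold.

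Members and lists were chosen with earlier results of these data known. Named were all members, AGO2, each called list gene, up to 2 further genes per list with the largest change within a stock, and the 3 nearest profiles per member; marker genes named beside them (Amy-p, alphaTry, Jon65Ai, Lsp2, Cp15) and the locus neighbours were chosen after their values were seen. A further gene that this rule names is not reported here.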

Additional observations from a re-analysis of the deposited data

How the results depend on the processing

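Of the 36 changes of members (9 genes, 4 comparisons), none that was called reversed its sign under the 6 alternatives. Uncalled, foxo, Thor, sug and daw turned from negative to positive in V966M when rescaled. Over all members and alternatives 199 kept their side of the call, 11 lost it and 2 gained it. Part of the 199 was fixed in advance. A filter on the mean alters neither a change nor an interval, so the 32 with a mean of at least 5 FPKM and the 36 without a filter could not move. At the 1.5-fold threshold, which gave 34, calls could be gained but not lost. Between heterozygotes, the 3 member calls became 1 when rescaled, 1 when rescaled off chromosome 3 and 1 with a pseudocount of 5 FPKM, the calls of sug and to being lost. In V966M, a 1.5-fold threshold gave 1 member call, CG6295. Calls over all genes moved more. In V966M, 45 (7 higher, 38 lower) became 21 when rescaled (13 and 8), 21 when rescaled off chromosome 3, 15 with a pseudocount of 5 FPKM and 329 at 1.5-fold. In 51B, 306 (184 and 122) became 298 when rescaled (140 and 158), 164 with a pseudocount of 5 FPKM and 875 at 1.5-fold. Between heterozygotes, 330 (297 and 33) became 212 when rescaled (134 and 78), 214 when rescaled off chromosome 3, 146 with a pseudocount of 5 FPKM and 1431 at 1.5-fold. Between homozygotes, 601 (299 and 302) became 560 when rescaled (362 and 198), 303 with a pseudocount of 5 FPKM and 1547 at 1.5-fold. A larger pseudocount shrinks changes of low genes and a lower threshold admits more, by construction. Rescaling divides each genotype by its own factor, and why the factors differ was not tested. No paired analysis was possible because each genotype has 1 value and shares no set of replicate numbers with another; V966M and 51B are different alleles and were not used as replicates of each other. For the same reason no replicate could be left out.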
